A study of Mus musculus with 15 samples.

Results

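Genes of tubular injury, repair and progenitor state were followed in mouse induced renal tubular epithelial cells (iRECs) in 4 three-dimensional microenvironments and in 2D culture. The members were the 8 genes Havcr1, Spp1, Clu, Sox9, Sox4, Igfbp7, Cd24a and Prom1, found by gene symbol among the 27179 genes of each of 4 deposited comparison tables, and all 8 were found in all 4. iRECs are fibroblasts that kidney transcription factors, expressed from transgenes, have turned into cells resembling tubule epithelium. Cells assembled by themselves in Matrigel, a gel of basement membrane proteins, in fibrin, which forms blood clots, or in collagen I, the fibrous protein of connective tissue. A further set, called printed cultures here, was dispensed by inkjet bioprinting into fibrin with collagen I. Each was set against hand-plated cells grown flat (2D). Every condition had 3 libraries of total RNA, 15 in all, started from passages 35, 48 and 53, and all cultures were kept in Renal Epithelial Growth Medium and taken on day 7. The labels give no strain, age, genotype or added agent for any condition. All libraries came from 1 cell line, split in parallel from a shared cell pool at each passage, so the tests cover the spread between cultures of that line and not between animals.

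Havcr1 (kidney injury molecule KIM-1) is nearly silent in healthy tubules and strongly induced in injured ones. Its product and those of Spp1 (osteopontin), Clu (clusterin) and Igfbp7 are used as tissue or urine markers of acute tubular injury. The transcription factor Sox9 marks surviving tubule cells that divide after injury, and Sox4 is a related factor of kidney development and epithelial plasticity. Cd24a and Prom1 (CD133) are surface proteins; CD24 and CD133 together mark scattered tubular cells with progenitor features in the human kidney.

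The deposited tables hold 1 mean level (the base mean), 1 log2 fold change over 2D and its standard error per gene, and no column of values per library. How a value was split among the 3 libraries of a condition was therefore not analysed here, and the depth of each library is unknown. Base means, in units of 1e6 normalised reads, summed to 42.8 to 45.4 per table. The epithelial label was checked by its markers, all 11 of which were detected: Cdh16 had base means of 47158 to 64782, Krt18 17328 to 20180 and Cdh1 5172 to 8815 in the authors' deposited tables. Of 12 immune markers, 8 had base means under 10 in all of the authors' deposited tables, among them Ptprc (CD45) at 0.646 to 3.02, Tyrobp at up to 0.175 and Cd3e at 0. The others were detected: Cd14 had base means of 3115 to 6348, Cd68 327 to 944, Csf1r 322 to 722 and Itgam 8.79 to 24.9 in the authors' deposited tables. In bulk RNA, more cells of a type and more RNA per cell cannot be told apart.

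The level of each member in each condition was implied by the base mean and the fold change together, on 1 scale for all tables, and carries no replicate error. Per kilobase of exon, the implied level in 2D was highest for Clu (57869 normalised reads per kb) and Spp1 (30571), above those of 99.95% and 99.8% of the 19901 genes with a length. Cd24a (4756 per kb), Igfbp7 (4656) and Sox4 (1738) followed, and Prom1 (992), Havcr1 (713) and Sox9 (496) were lowest. Even Sox9 stood above 76.6% of genes per kb. Secreted injury products were thus among the most abundant transcripts of these cells on flat plates. The 4 tables gave 4 estimates of the level in 2D, which lay within a factor of 1.13 of each other for 7 members. For Havcr1 they spanned a factor of 2.95, and the high one came from the table of the printed cultures.

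**Figure D1:**
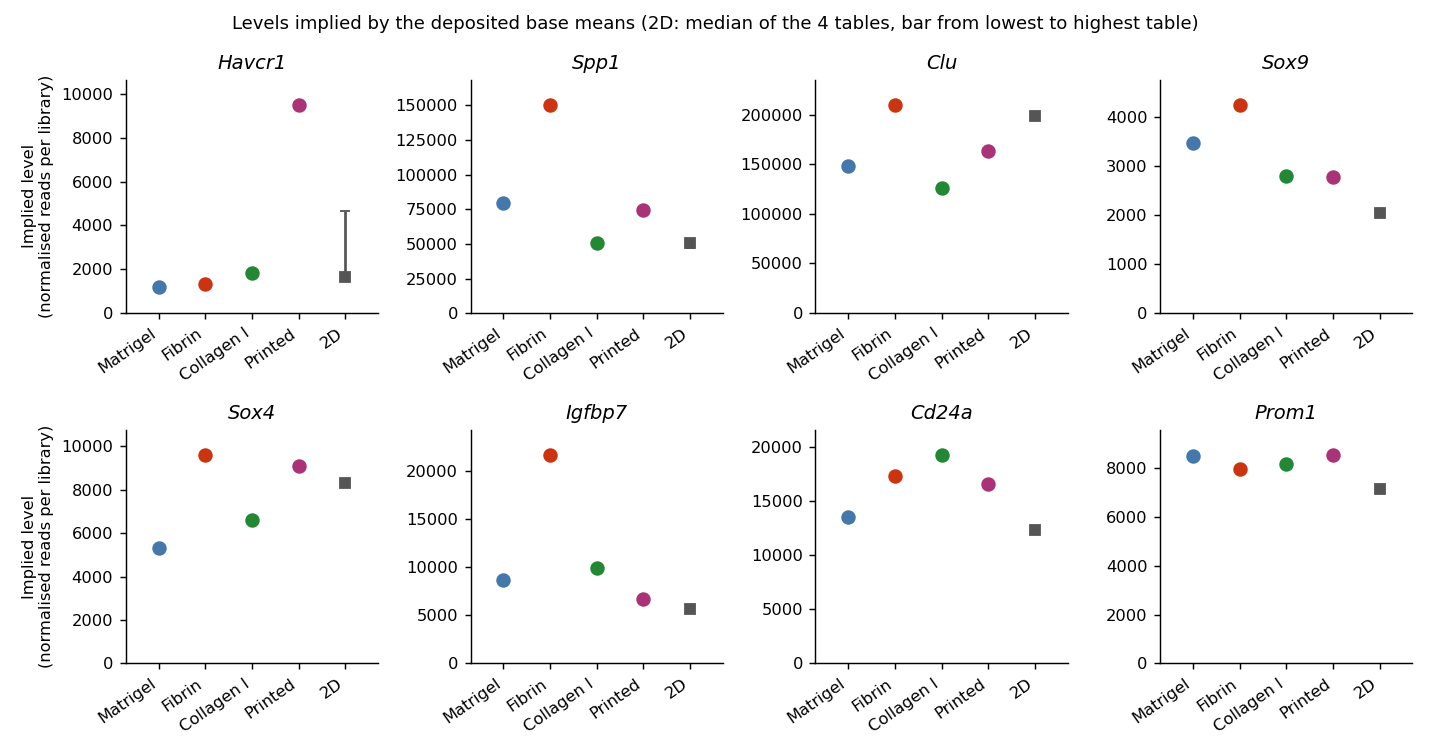
Implied level of each gene (vertical axis, normalised reads per library on a common scale, linear from 0) in Matrigel, fibrin, collagen I and printed cultures and in 2D (square, median of 4 tables with a bar from the lowest to the highest table). Havcr1 was at 9509 in printed cultures and between 1206 and 1815 in the other 3 gels, and Igfbp7 was at 21607 in fibrin against 5629 in 2D.

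Rises and falls are reported for genes with an adjusted p under 0.05 in the authors' DESeq2 Wald test, which was adjusted over all genes it kept. In Matrigel, Sox4 fell and no member rose, 1 of 8, while 6.36% of 14602 genes were called there (4.03% risen, 2.32% fallen). In fibrin, Igfbp7, Spp1 and Sox9 rose and none fell, 3 of 8, against 8.3% of 14636 genes (5.19% risen, 3.11% fallen). In collagen I, Igfbp7 rose and Clu fell, 2 of 8, against 11.2% of 14064 genes (6.51% risen, 4.65% fallen). In printed cultures 0 of 8 members were called, against 3.18% of 15116 genes (2.51% risen, 0.675% fallen). At an unadjusted p under 0.05 there were 4 members in Matrigel (Spp1, Sox9, Sox4 and Igfbp7), 4 in fibrin (Spp1, Sox9, Igfbp7 and Cd24a), 4 in collagen I (Clu, Sox9, Igfbp7 and Cd24a) and 2 in printed cultures (Spp1 and Sox9), while 12.2%, 14.6%, 16.5% and 8.82% of all genes with a p-value passed it. Over the 8 members the median log2 fold change in the authors' deposited tables was 0.22 in Matrigel, 0.34 in fibrin, 0.21 in collagen I and 0.37 in printed cultures, while the median of all genes lay between -0.01 and 0.01. The 4 comparisons share the same 3 libraries in 2D, so a like direction in several of them is not separate evidence.

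**Figure D2:**
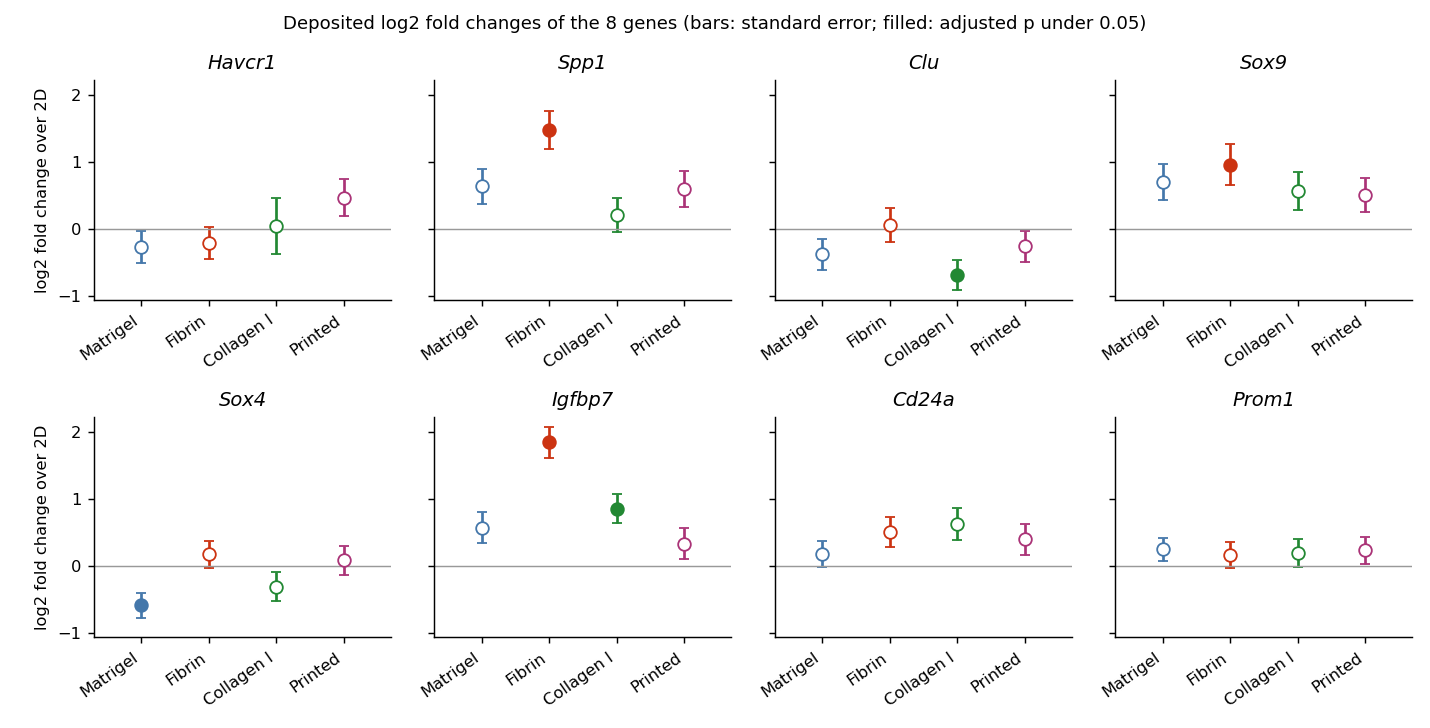
Deposited log2 fold change over 2D (vertical axis) of each gene in Matrigel, fibrin, collagen I and printed cultures, with bars of 1 standard error and filled points where the adjusted p was under 0.05. Filled points are Sox4 in Matrigel, Spp1, Sox9 and Igfbp7 in fibrin, and Clu and Igfbp7 in collagen I.

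Havcr1 (gene 171283, chromosome 11, 46739822 to 46779578, GRCm38, plus strand) encodes a membrane receptor for phosphatidylserine that lets injured tubule cells take up dying neighbours. It was not called in any of the 4 comparisons. The authors' deposited tables gave log2 -0.27 ± 0.24 for Matrigel (standard error, adjusted p = 0.67), -0.21 ± 0.24 for fibrin (adjusted p = 0.73) and 0.04 ± 0.42 for collagen I (adjusted p = 0.97). The standard error in collagen I exceeded that of 99.96% of genes above a base mean minimum of 100. Deposited errors did not always grow as reads became few. Tyrobp, with a base mean of at most 0.175, had 0.096 in Matrigel, and in collagen I Havcr1, Fga and Pdgfrb all had 0.4169. Intervals built from these errors may therefore not be ordinary sampling intervals. Whether the fit pulled the deposited values toward 0 was not tested. For printed cultures the authors' deposited table gave log2 0.47 ± 0.27, with p = 0.0864 and adjusted p = 0.56 over all genes.

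The mean levels of Havcr1 told another size for the printed cultures. Its base mean, the mean over the 3 gel and 3 2D libraries of a comparison, was 5706 in the authors' deposited table for printed cultures, and 1460, 1483 and 1656 in those for Matrigel, fibrin and collagen I. Since the 2D libraries are shared, the excess belongs to the printed libraries. With 2D at the middle value of the Matrigel, fibrin and collagen I tables (1608 normalised reads), the printed libraries averaged 9509, which is 5.91-fold higher or 2.56 on the log2 scale. The implied log2 ratios of the other gels were -0.48 for Matrigel, -0.36 for fibrin and 0.17 in collagen I. The deposited values were 0.565, 0.587 and 0.254 times these, and the gaps, each under 1 deposited standard error, were larger in size than those of 98.5%, 97.7% and 97.4% of genes. For these gels the middle 2D level was drawn from tables that included the printed one, whose 2D level was 4666. With 2D at the lowest of those tables, chosen after seeing the data, the log2 ratios were -0.33, -0.16 and 0.22. The fibrin ratio was then smaller in size than the deposited -0.21. A limit that uses fold changes only to put the tables on 1 scale points the same way. No library in Matrigel can be below 0, so 2D averaged at most 2891, the printed libraries at least 8226, and the ratio was at least 2.85-fold (log2 1.51). That limit lies above the upper end of the deposited 95% interval, -0.067 to 1.002. It covers the mean of 3 libraries only and says nothing of whether all of them were high.

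The gap between the implied and the deposited log2 value of Havcr1 in printed cultures was 2.10, or 7.69 deposited standard errors, the third largest in size of the 11175 genes above the minimum of 100. Among the 17 such genes with an implied log2 above 2, the deposited value was a median of 0.756 times the implied one, and for Havcr1 it was 0.182 times. Of those 17 genes, 14 were called by the authors' adjusted p and 3, Havcr1 among them, were not. An implied value above 1 with a gap over 1 was found for 7 genes in printed cultures, 11 in fibrin and 1 each in Matrigel and collagen I. The spread between the 3 printed libraries was not analysed here, so a difference of Havcr1 between printed cultures and 2D was not established, and a small fold change was not shown either. The difference of the deposited log2 values, printed minus Matrigel, was 0.74 (95% interval 0.03 to 1.45, adjusted p = 0.99996, normal test over all genes).

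**Figure D3:**
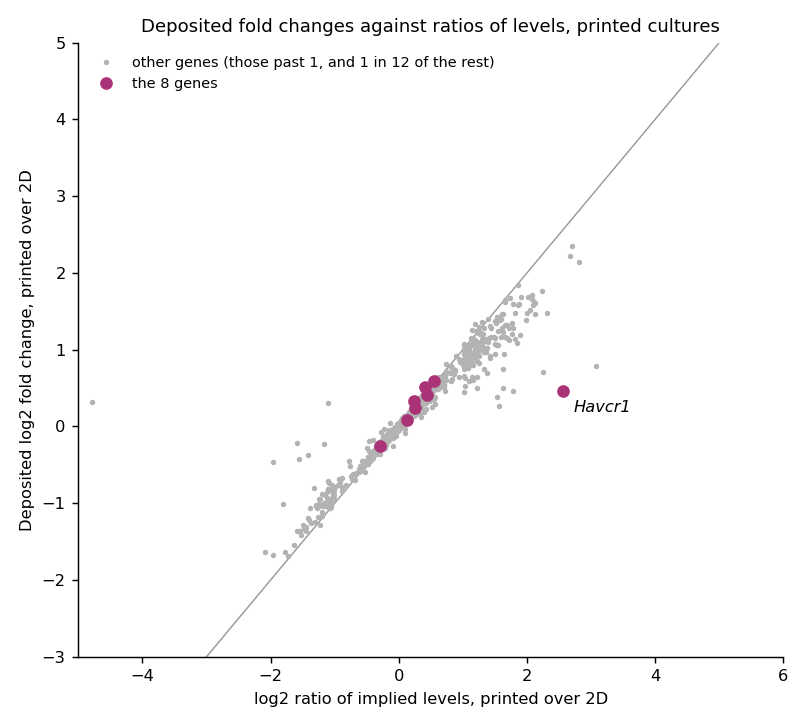
Deposited log2 fold change (vertical axis) against the log2 ratio of implied levels (horizontal axis), printed cultures over 2D, for the 8 genes and for other genes above a base mean minimum of 100 (thinned where small), with the line of equality. Havcr1 lies far below the line, at an implied 2.56 and a deposited 0.47, while the other 7 genes lie near it.

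Timd2, a relative of Havcr1 in the same family, was looked at after its values were seen. It had log2 0.46 ± 0.30 in the authors' deposited table for printed cultures (adjusted p = 0.64), and an implied log2 ratio of 1.79. Havcr1 shares 77 of its 2306 stretches of 50 exonic bases with Timd2 and 4.60% with any other gene, so a small part of its reads can be assigned to more than 1 gene. Of 19 genes of the Havcr family and of phosphatidylserine uptake, none rose in any gel. The authors' adjusted p called 2 fallen of 14 tested in Matrigel, 3 of 13 in fibrin, 3 of 13 in collagen I and 0 of 15 in printed cultures. Over all genes, 2.32%, 3.11%, 4.65% and 0.675% were called fallen in the same order. Lrp1, an engulfment receptor, fell by 0.96, 1.06 and 0.96 on the log2 scale in Matrigel, fibrin and collagen I in the authors' deposited tables. The bridging ligand Gas6 fell by 1.59 in collagen I and the engulfment adaptor Elmo1 by 1.37 in fibrin in those deposited tables of the authors.

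Spp1 (gene 20750, chromosome 5, 104435111 to 104441053, plus strand) encodes osteopontin, a secreted matrix protein that binds integrins and CD44. It rose in fibrin, with log2 1.47 ± 0.29 (2.78-fold, adjusted p = 1.94e-05) in the authors' deposited table, and an implied level of 150535 normalised reads against 49914 in 2D. The other gels were not called: log2 0.63 ± 0.27 in Matrigel (adjusted p = 0.16), 0.21 ± 0.25 in collagen I (adjusted p = 0.68) and 0.59 ± 0.27 in printed cultures (adjusted p = 0.31) in the authors' deposited tables. All 4 values were positive. Fibrin minus printed, a gel that also holds fibrin, was 0.88 (95% interval 0.11 to 1.64, adjusted p = 0.65), and fibrin minus collagen I was 1.26 (0.51 to 2.01, adjusted p = 0.16). Fibrin minus Matrigel was 0.84 (0.08 to 1.61, adjusted p = 0.79). The spread of the shared 2D libraries could not be measured. As an alternative, an assumed share of the variance was taken out for it, the same share for every gene. Fibrin minus printed and fibrin minus collagen I then passed, at adjusted p = 0.0389 and adjusted p = 0.000474. Fibrin minus Matrigel did not, at adjusted p = 0.058. Of all genes, 756, 292 and 706 then passed in these pairs, against 198, 90 and 167 before. With an empirical null, in which the middle of the test statistics sets their spread, fibrin minus collagen I passed, at adjusted p = 1.61e-08. Fibrin minus printed and fibrin minus Matrigel did not, at adjusted p = 0.084 and adjusted p = 0.077. Among 11 receptors of osteopontin, 9 were tested in each gel. They held 0 calls in Matrigel, fibrin and printed cultures and 3 in collagen I, where 11.2% of all genes were called. All 3 had fallen: the integrin subunits Itgb5 (log2 -1.07 ± 0.25), Itgb3 (-0.63 ± 0.22) and Itgb6 (-0.63 ± 0.21) in the authors' deposited table. In Spp1 itself, 11.6% of the 50-base stretches are shared, with the unreviewed transcript Gm42793 overlapping it on its own strand.

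Igfbp7 (gene 29817, chromosome 5, 77349240 to 77408045, minus strand) encodes a secreted protein of the insulin-like growth factor binding protein group that is linked to cell cycle arrest in stressed tubules. It had the largest deposited fold change of the 8 genes: log2 1.85 ± 0.23 in fibrin (3.60-fold, adjusted p = 1.71e-13) in the authors' deposited table, the gene of rank 30 by p. Its implied log2 ratio there was 1.96, below the 2.56 of Havcr1 in printed cultures. It also rose in collagen I, log2 0.86 ± 0.21 (1.81-fold, adjusted p = 0.00173), in the authors' deposited table. Matrigel (0.57 ± 0.23, adjusted p = 0.14) and printed cultures (0.34 ± 0.23, adjusted p = 0.67) were not called in the authors' deposited tables. With the empirical null, the fibrin call of Igfbp7 passed and the collagen I call did not. Implied levels were 8688 in Matrigel, 21607 in fibrin, 9855 in collagen I and 6733 in printed cultures, against 5629 in 2D.

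Differences between gels were tested for 6 pairs of microenvironments and 8 members, 48 tests, each adjusted over all genes of its pair. Igfbp7 was higher in fibrin than in Matrigel by log2 1.28 (95% interval 0.64 to 1.91, adjusted p = 0.0148), in a pair where 0.886% of 18844 genes passed. Igfbp7 was also higher in fibrin than in printed cultures, by 1.51 (0.88 to 2.15, adjusted p = 0.000754), where 1.05% of 18859 genes passed. Fibrin minus collagen I was 0.99 (0.38 to 1.60, adjusted p = 0.23) and did not pass. It did at adjusted p = 0.00108 with the assumed spread of the shared 2D libraries taken out. Of all genes, 292 then passed, against 90 before. No other member passed in any pair in this main test. With the empirical null, Spp1, Clu, Sox4 and Igfbp7 passed in fibrin minus collagen I, where 817 genes passed in all. Sox4 also passed with it in fibrin minus Matrigel and in printed minus Matrigel, where 612 and 500 genes passed in all. In the main test the share of all genes that passed was 0.477% in fibrin minus collagen I, 0.435% in printed minus Matrigel, 0.662% in printed minus collagen I and 0.329% in collagen I minus Matrigel. Of 9 relatives and partners of Igfbp7, none rose in fibrin and 2 of 7 tested fell there, Igfbp1 (log2 -1.49 ± 0.39) and the protease Htra1 (-0.84 ± 0.24) in the authors' deposited table. In Matrigel, Igfbp4 rose by log2 1.08 ± 0.28 and Htra1 was at -0.72 ± 0.22 in the authors' deposited table, with 2 risen and 1 fallen of 7. In collagen I 1 of 5 tested fell and in printed cultures 0 of 7 were called. Against 2D, 6.36% of all genes were called in Matrigel, 8.3% in fibrin, 11.2% in collagen I and 3.18% in printed cultures.

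**Figure D4:**
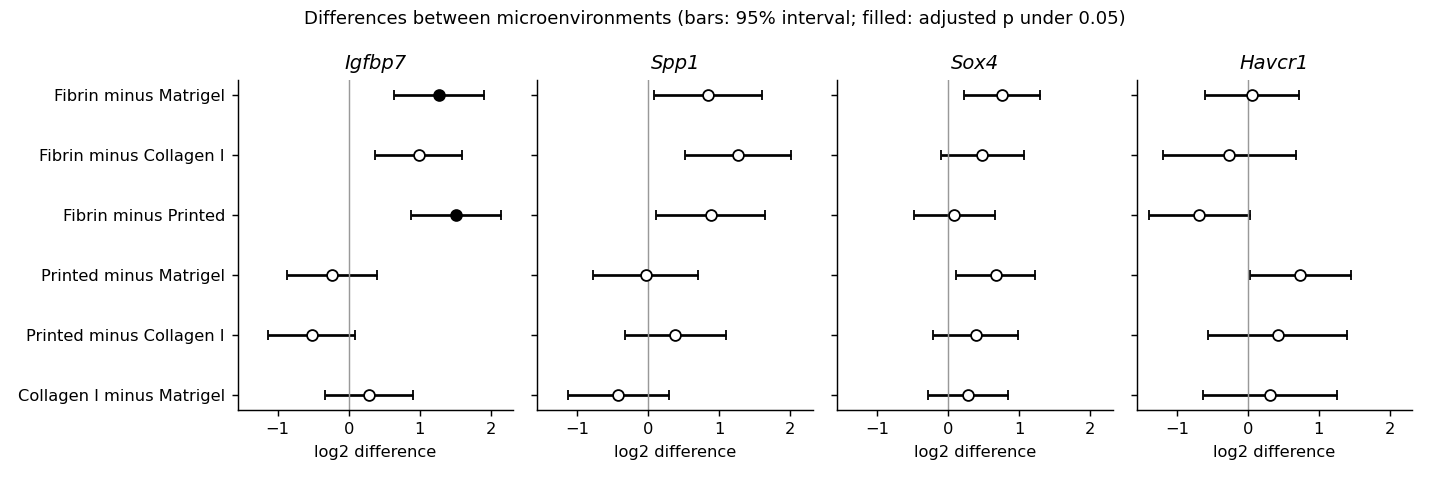
Differences of log2 fold changes between microenvironments (horizontal axis, first named minus second, bars of the 95% interval) for Igfbp7, Spp1, Sox4 and Havcr1, filled where the adjusted p over all genes was under 0.05. Filled points are Igfbp7 in fibrin minus Matrigel (1.28) and in fibrin minus printed (1.51).

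The promoters of Igfbp7 and Spp1, which rose together in fibrin, and of Havcr1, which stood apart in printed cultures, were read from RefSeq (GRCm38.p6). The 250 bases before the first listed start were taken. Havcr1 has 3 listed starts and Spp1 and Prom1 have 2 each, and the other starts were not read. For Havcr1 and Prom1 the window lies inside the gene bounds given in this report. The RefSeq table held 5 of the 8 members. Igfbp7 is at chr5:77408046-77408295 on the minus strand, Spp1 at chr5:104434861-104435110 and Havcr1 at chr11:46739973-46740222 on the plus strand. Capitals mark a match to a searched motif.
Igfbp7: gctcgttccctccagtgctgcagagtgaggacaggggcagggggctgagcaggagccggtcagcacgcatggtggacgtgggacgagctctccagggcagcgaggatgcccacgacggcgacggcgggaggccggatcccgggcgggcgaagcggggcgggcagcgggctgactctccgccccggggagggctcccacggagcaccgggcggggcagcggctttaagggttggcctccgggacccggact
Spp1: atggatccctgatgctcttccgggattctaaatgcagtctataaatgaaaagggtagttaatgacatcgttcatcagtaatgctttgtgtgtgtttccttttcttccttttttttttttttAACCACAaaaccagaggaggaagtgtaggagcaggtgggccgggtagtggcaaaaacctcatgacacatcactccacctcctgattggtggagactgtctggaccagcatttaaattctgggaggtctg
Havcr1: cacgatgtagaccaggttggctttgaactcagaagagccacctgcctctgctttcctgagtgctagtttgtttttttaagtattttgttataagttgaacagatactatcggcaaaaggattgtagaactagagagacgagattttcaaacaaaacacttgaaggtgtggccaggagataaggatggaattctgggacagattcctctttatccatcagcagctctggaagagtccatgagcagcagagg
Both strands were searched for STAT (TTCNNNGAA), AP-1 (TGANTCA), NF-kB (GGGA and CC with 4 bases between them), RUNX (AACCACA) and SOX (ACAATG) letters, which 7.02%, 6.75%, 17.6%, 4.40% and 10.7% of 32851 promoter windows of that length hold. Spp1 held the RUNX letters, 129 bases before the start. In the windows read, Igfbp7 and Havcr1 held none of these 5 patterns, nor did Sox4, and Prom1 held the AP-1 letters 88 bases before its first listed start. Base composition differed widely between the genes that rose together: 74% of the Igfbp7 window was G or C, against 43.6% for Spp1, and 43.2% for Havcr1.

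Clu (gene 12759, chromosome 14, 65968483 to 65981548, plus strand) encodes clusterin, a secreted chaperone also carried on lipoproteins. No 50-base stretch of Clu or Sox9 exons is shared with another gene, and for Igfbp7, Cd24a and Prom1 the share is 2.99%, 2.75% and 5.10%. It fell in collagen I, log2 -0.69 ± 0.22 (1.61-fold lower, adjusted p = 0.0242), in the authors' deposited table, with an implied level of 125563 normalised reads against 198075 in 2D. Clu stood at -0.38 ± 0.23 in Matrigel (adjusted p = 0.44), 0.06 ± 0.25 in fibrin (adjusted p = 0.95) and -0.26 ± 0.23 in printed cultures (adjusted p = 0.80) in the authors' deposited tables. Its implied level was 125563 or more in every condition. The collagen I call did not pass at an adjusted p under 0.01 or with the empirical null. Lrp2 (megalin), a clusterin receptor and the endocytic receptor of the proximal tubule, rose in Matrigel by 0.56 ± 0.16 in the authors' deposited table.

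Sox9 (gene 20682, chromosome 11, 112782210 to 112787757, plus strand) rose in fibrin, log2 0.96 ± 0.31 (1.94-fold, adjusted p = 0.0287), in the authors' deposited table. It was positive but not called in Matrigel (0.70 ± 0.26, adjusted p = 0.097), collagen I (0.56 ± 0.28, adjusted p = 0.21) and printed cultures (0.51 ± 0.25, adjusted p = 0.40) in the authors' deposited tables. Implied levels were 3485 in Matrigel, 4259 in fibrin, 2798 in collagen I and 2779 in printed cultures, against 2050 in 2D. No pair of gels passed the test of the difference for Sox9, and the interval of fibrin minus Matrigel, -0.54 to 1.05, holds differences of either sign. The fibrin call for Sox9 did not pass at an adjusted p under 0.01, nor with the empirical null.

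Sox4 (gene 20677, chromosome 13, 28948919 to 28953699, minus strand) fell in Matrigel, log2 -0.58 ± 0.18 (1.50-fold lower, adjusted p = 0.0292), in the authors' deposited table. It was at 0.18 ± 0.20 in fibrin (adjusted p = 0.74), -0.31 ± 0.22 in collagen I (adjusted p = 0.44) and 0.09 ± 0.21 in printed cultures (adjusted p = 0.96) in the authors' deposited tables. The call did not pass at an adjusted p under 0.01 or with the empirical null. Fibrin minus Matrigel was 0.76 (95% interval 0.22 to 1.30, adjusted p = 0.28). It passed at adjusted p = 0.0045 with the assumed shared spread of 2D taken out, and at adjusted p = 0.0071 with the empirical null. Of all genes, 706 and 612 passed in these settings, against 167 in the main test. Sox4 values are uncertain as to their source: 54.1% of its 50-base stretches lie also in Gm26735, a long noncoding RNA that overlaps it by 2616 exonic bases on the opposite strand, and the strand setting of the counting is not given in the sources used here. Of 18 other Sox genes 7 were tested in each gel. Sox5 alone was called, at log2 -1.19 ± 0.40 in the authors' deposited table for collagen I, where 11.2% of all genes were called.

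Cd24a (gene 12484, chromosome 10, 43579169 to 43584265, plus strand) encodes a small lipid-anchored glycoprotein, and Prom1 (gene 19126, chromosome 5, 43993621 to 44102047, minus strand) a membrane protein of cell protrusions. Neither was called in any comparison, and all 8 values were positive. Cd24a was at log2 0.18 ± 0.19 in Matrigel (adjusted p = 0.76), 0.51 ± 0.22 in fibrin (adjusted p = 0.16), 0.64 ± 0.24 in collagen I (adjusted p = 0.061) and 0.41 ± 0.23 in printed cultures (adjusted p = 0.54) in the authors' deposited tables. Prom1 varied least of the 8 genes, with values of 0.25 ± 0.16 in Matrigel, 0.17 ± 0.20 in fibrin, 0.20 ± 0.21 in collagen I and 0.24 ± 0.20 in printed cultures in the authors' deposited tables. Its implied levels were 8485, 7968, 8148 and 8516 normalised reads in the same order, against 7117 in 2D. The 2 progenitor surface genes were thus already expressed on flat plates, and the 95% interval of Prom1 in Matrigel, -0.07 to 0.57, shows how large a change these libraries leave unresolved. Of 6 partners of CD24, the adhesion molecule L1cam fell in Matrigel, fibrin and collagen I by 0.67, 0.80 and 0.94 on the log2 scale, and Hmgb1, a nuclear protein released by dying cells, rose in fibrin, collagen I and printed cultures by 1.07, 1.08 and 0.65 in the authors' deposited tables.

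A wider list held 50 other injury and failed repair genes, of which 48 were in the tables. In fibrin 9 rose and 1 fell of 46 tested, against 8.3% of all genes called, with a median log2 fold change of 0.39 against 0.00 for all genes. Cp (ceruloplasmin, log2 4.05 ± 0.31) and the complement protein C3 (2.20 ± 0.32) were highest among the called genes there by the fold change in the authors' deposited table. By implied levels the order differed, at log2 5.44 for Cp, 4.89 for Lcn2 and 2.64 for C3. Ccl2, a chemokine chosen after its values were seen, was at an implied 4.15 and at a deposited 0.41 ± 0.28 (adjusted p = 0.48) in the authors' table. In collagen I 6 rose and 7 fell of 45, against 11.2% of all genes called. Of these, S100a6 (1.23 ± 0.22) and the urokinase receptor Plaur (1.22 ± 0.24) were highest and Tgfb2 (-1.63 ± 0.26) and Lcn2 (NGAL, -1.55 ± 0.41) lowest in the authors' deposited table. In Matrigel 4 rose and 2 fell of 45, against 6.36% of all genes called. Of these, Krt20 (0.88 ± 0.20) and Dcdc2a (0.84 ± 0.20) were highest and Tgfb2 (-1.60 ± 0.23) lowest in the authors' deposited table. In printed cultures 6 rose and 1 fell of 46, against 3.18% of all genes called. Of these, the keratins Krt19 (1.34 ± 0.20) and Krt20 (1.10 ± 0.20) were highest and Tgfb2 (-0.93 ± 0.25) lowest in the authors' deposited table. Outside fibrin, the median of the list was near that of all genes. It was 0.04 in Matrigel, 0.04 in collagen I and 0.05 in printed cultures, against -0.004, 0.01 and 0.01 for all genes. S100a6, a calcium-binding protein, rose and Tgfb2, a growth factor of fibrosis, fell in all 4 gels. Lcn2, a urine marker of tubular injury, was called in opposite directions, at 1.07 ± 0.37 in fibrin and -1.55 ± 0.41 in collagen I in the authors' deposited tables. Its implied log2 ratios were larger in size, 4.89 in fibrin and -2.97 in collagen I.

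**Figure D5:**
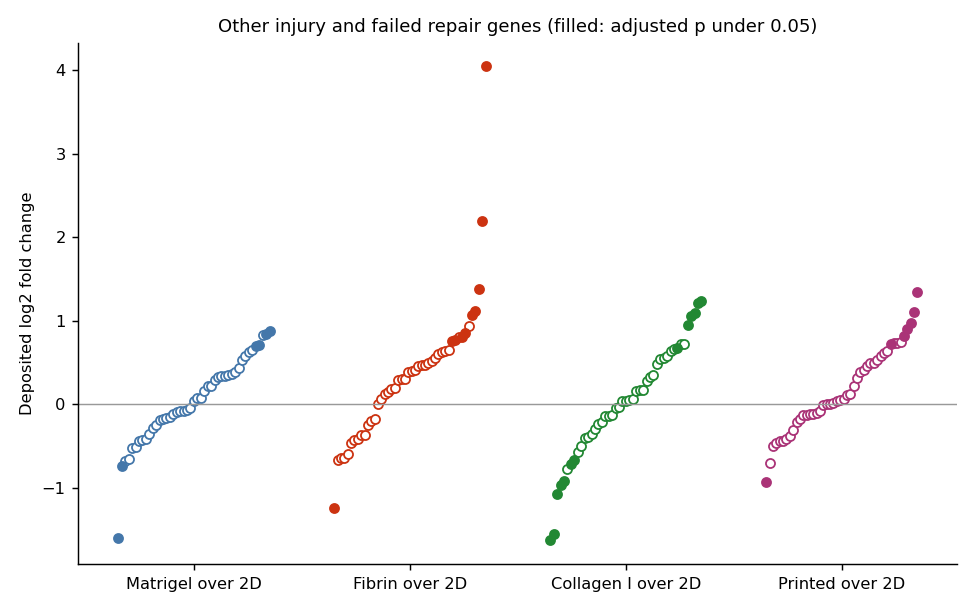
Deposited log2 fold change over 2D (vertical axis) of the other injury and failed repair genes with an adjusted p, ordered by value within each comparison and filled where the adjusted p was under 0.05. In fibrin 9 filled points lie above 0 and 1 below, and in collagen I 6 lie above and 7 below.

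A list of 34 progenitor and nephron development genes showed no common direction. The authors' adjusted p called 5 risen and 3 fallen of 30 in Matrigel, 3 and 1 of 30 in fibrin, 5 and 5 of 29 in collagen I, and 4 and 2 of 30 in printed cultures. Over all genes it called 6.36%, 8.3%, 11.2% and 3.18% in the same order. Kit, a receptor tyrosine kinase of progenitor cells, fell by log2 2.09 in Matrigel and 2.57 in collagen I, and the Wnt co-receptor Lgr5 rose by 1.11 and 1.93 in these gels in the authors' deposited tables. Aldh1a3, a retinoic acid synthesis enzyme, was the highest in printed cultures, at 1.78 ± 0.30 in the authors' deposited table. In fibrin the Notch target Hey1 rose by 1.51 ± 0.31 and Pax8, a renal lineage factor that these cells also received as a transgene, fell by 0.63 ± 0.19 in the authors' deposited table.

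Some genes named for other cell types moved beside these results. Of 12 immune markers, 4 were tested and 2 rose in fibrin, Cd14 (log2 1.54 ± 0.22) and Itgam (1.24 ± 0.40), and 2 in printed cultures, Cd68 (1.60 ± 0.23) and Csf1r (0.71 ± 0.22), in the authors' deposited tables. Over all genes, 5.19% rose in fibrin and 2.51% in printed cultures. Csf1r went the other way in Matrigel (log2 -1.31 ± 0.23) and collagen I (-1.50 ± 0.27) in the authors' deposited tables. It was the 1 marker called of 4 tested in each of these gels, where 2.32% and 4.65% of all genes fell. The summed implied level of the list was 4470 in Matrigel, 10414 in fibrin, 4082 in collagen I and 5782 in printed cultures, against 4035 in 2D. The base means of its low and its detected members are given above. Of 11 endothelial markers, Flt1 alone rose, in fibrin (0.93 ± 0.32) and printed cultures (1.42 ± 0.24), in the authors' deposited tables. Base means of 4 others, Kdr, Tek, Tie1 and Emcn, were under 10 in all of the authors' deposited tables, while Egfl7 had 493 to 626, Vwf 56.4 to 80.3, Plvap 45.2 to 51.2 and Pecam1 6.57 to 12.5. The summed endothelial level was 1481, 1760, 1087 and 2153 in Matrigel, fibrin, collagen I and printed cultures, against 1182 in 2D. Fibroblast markers summed to 5157, 8902, 6242 and 10853 in the same order, against 10648 in 2D, of which Fn1 (fibronectin) made 8347. Twist2, a mesenchymal transcription factor, rose in all 4 gels by log2 0.84 to 1.30, and S100a4 rose in fibrin, collagen I and printed cultures by 1.09, 1.49 and 1.36 in the authors' deposited tables. Fn1 fell in Matrigel and collagen I (log2 -1.97 and -1.73), Col1a1 in fibrin and collagen I (-1.49 and -2.35) and Pdgfra in fibrin (-1.19) in those deposited tables of the authors. The part of these markers in the results was not tested.

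For each member the 2 genes with the most similar pattern were taken from the 11121 genes that reached the base mean minimum in all tables, by the Euclidean distance over the 4 deposited log2 fold changes. Igfbp7 lay nearest to Serping1, the C1 inhibitor of complement (distance 0.24), which rose by log2 2.06 in fibrin in the authors' deposited table, and to Mthfs (0.40). Spp1 lay nearest to the exchange factor Kalrn (0.34) and the ubiquitin ligase Rnf180 (0.35), both called in fibrin and in no other gel by the authors' adjusted p. Sox9 lay nearest to the actin regulator Wasf1 (0.15) and the cell cycle phosphatase Cdc25b (0.18). Sox4 lay nearest to Pmaip1 (0.17) and Cd44 (0.19), Clu to Wdsub1 (0.22) and Icam1 (0.22), and Havcr1 to Rnf217 (0.13) and Hcfc1r1 (0.13). The place of Havcr1 rests on its deposited log2 0.47 in printed cultures, where its implied log2 ratio was 2.56. Base means in the authors' deposited table for printed cultures were 5706 for Havcr1 and 1928 for Hcfc1r1. A likeness in levels was therefore not shown for Havcr1. Cd24a and Prom1 lay nearest to Chek2 (0.018) and Mapk8ip1 (0.031).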

How the data were processed

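RNA of 15 libraries was read through the authors' 4 deposited tables of DESeq2 results, 1 per microenvironment over 2D, each fitted on 6 libraries. The submitters' processing notes name build mm10 and, as the authors' tools, DESeq2 1.22.1, featureCounts 1.6.3, STAR 2.6.0b-1, Trim Galore 0.4.3 and FastQC 0.72. For strand, annotation and any passage term, the choice made is not given in the sources used here. In name, the table for printed cultures is one of collagen, while the labels give fibrin and collagen I. The deposited base mean is a signal: the authors divided read counts by size factors and averaged them over the 6 libraries. The authors gave each fold change and its standard error on the log2 scale, microenvironment over 2D. The deposited Wald statistic is a score, the fold change over its standard error, and the deposited p-value is its two-sided normal p-value. Benjamini-Hochberg adjustment of these returned the deposited adjusted values within 6.31e-15. No gene with a base mean above 0 lacked a p-value.

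Calls used the authors' adjusted p under 0.05, and no model was fitted again, for want of values per library. The level in a gel and in 2D was solved from base mean and fold change, with tables put on 1 scale by the median gene. The level in 2D for a ratio was the median of the other 3 tables. The direction of fold changes was checked through these levels: the median SD of the log2 level in 2D between tables was 0.0099, and at least 0.092 with a sign turned. Gels were compared by subtracting their log2 fold changes and dividing by the combined standard error (variances added), with a two-sided normal p adjusted over all genes of the pair (scipy 1.17.1). An alternative took out an assumed share of that variance for the shared 2D libraries, the same share for every gene, since their spread could not be measured. The scripts were tested on simulated data. Positions and shared 50-base stretches came from GENCODE on GRCm38. Named were all members, the extreme called genes of each list, marker genes by base mean, and the 2 nearest genes of each member. The members and lists were chosen with earlier results of these data known. Alternatives were other thresholds, the p adjusted over all genes with a p-value, a zero point at the median gene, a fold minimum (absolute log2 value at least 1), and an empirical null, which divides each statistic by the spread of the middle of its distribution. Some listed genes are not reported here.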

Additional observations from a re-analysis of the deposited data

Results flagged for a closer look

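The response of Igfbp7 differed between microenvironments by the test of the difference itself. Fibrin minus Matrigel was 1.28 on the log2 scale (adjusted p = 0.0148), from 1.85 in fibrin and 0.57 in Matrigel in the authors' deposited tables. Fibrin minus printed was 1.51 (adjusted p = 0.000754), from 1.85 in fibrin and 0.34 in printed cultures in the authors' deposited tables. Both differences also passed over the genes with an adjusted p in both tables, at adjusted p = 0.0126 and adjusted p = 0.000653. They passed too with the assumed covariance of the shared 2D libraries taken out and with an empirical null. Those settings enlarged every statistic of a pair by the same factor, so a gene that passed the main test had to pass again. Of all genes, 706 and 756 passed with the covariance taken out and 612 and 575 with the empirical null, against 167 and 198 in the main test.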

How the results depend on the processing

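No paired analysis was possible because the tables hold no values per library, and for that reason leaving out each replicate could not be run either. Members called in Matrigel numbered 0 at an adjusted p under 0.01, with an empirical null and with a fold minimum (absolute log2 value at least 1), and 2 at an adjusted p under 0.1, where Sox9 joined Sox4. Those in collagen I numbered 1 at 0.01 (Igfbp7) and 0 under both the empirical null and the fold minimum. Over 148 listed genes besides the members, called ones numbered 22, 22, 34 and 16 in Matrigel, fibrin, collagen I and printed cultures. They numbered 13, 12, 22 and 8 at an adjusted p under 0.01, 9, 8, 4 and 10 with an empirical null, and 5, 13, 19 and 4 with the fold minimum. All genes called numbered 928, 1215, 1570 and 481, and 539, 724, 887 and 256 at 0.01, 372, 343, 147 and 274 with an empirical null, and 323, 610, 717 and 228 with the fold minimum. With the assumed covariance of the shared 2D libraries taken out, members that differed numbered 2 in fibrin minus Matrigel, 2 in fibrin minus collagen I, 2 in fibrin minus printed and 1 in printed minus Matrigel. Of all genes, 706, 292, 756 and 429 then differed in these pairs, against 167, 90, 198 and 82 in the main test. With an empirical null, members that differed numbered 2 in fibrin minus Matrigel, 4 in fibrin minus collagen I and 1 in printed minus Matrigel. Of all genes, 612, 817 and 500 differed with it in these pairs. The cause of these moves was not tested. Of the 32 log2 fold changes, 31 moved by less than a standard error as ratios of implied levels, and Havcr1 in printed cultures moved to 2.56. Taking 2D as the lowest or the highest of the other 3 tables, chosen after seeing the data, left 32 and 29 implied ratios within their error. The highest gave no value for Havcr1 in Matrigel, fibrin and collagen I, where the printed table set the level in 2D. With a base mean minimum of 20, the 2 nearest genes kept 0 for Clu, 1 each for Sox9 and Sox4, and 2 for the other members.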
